A study of Saccharomyces cerevisiae with 88 samples.

Results

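The genes described here are the 33 genes of budding yeast that encode the 26S proteasome and its activator, 33 of the 12454 features in the tables. They were chosen by name, with earlier results of these data known. They are 7 genes of the alpha ring and 7 of the beta ring of the 20S core particle. A further 10 are of the base and 8 of the lid of the 19S regulatory particle. The last is RPN4, which encodes the transcription factor of the module. All 33 were found in every table, and their coding coordinates in the tables' annotation matched those of RefSeq for genome R64 in 33 of 33. The lid gene SEM1 was not among them and is counted with the other genes of the pathway.

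The proteasome degrades proteins that carry ubiquitin. The beta ring holds the proteolytic sites (in PRE2, PRE3 and PUP1), the Rpt ATPases of the base unfold the substrate, Rpn10 and Rpn13 bind ubiquitin, and Rpn11 removes it. Rpn4 binds a short promoter element, the proteasome-associated control element (PACE), in front of most proteasome genes, and is itself a very short-lived substrate of the proteasome, so that the module regulates its own supply. Nab3 is an RNA-binding protein of the Nrd1-Nab3-Sen1 complex, which terminates transcription of short non-coding RNAs by RNA polymerase II (Pol II) and of some messenger RNAs near their start.

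The study measured, minutes after cells lost glucose, which RNAs were bound by Nab3 and by Rpo21, the largest subunit of Pol II. It used χCRAC, in which a tagged protein is cross-linked to its RNA by a UV pulse in living cells and the RNA is sequenced, and total RNA sequencing (RNA-Seq). The Nab3, Rpo21 and RNA-Seq samples came from strain BY4741 (MATa, with his3delta_1, leu2delta_0, met15delta_0 and ura3delta_0), followed through 2 time-courses from glucose to medium lacking glucose for each protein, 1 time-course from glucose to glucose as a control, and 1 RNA-Seq time-course with a single library per time-point. In a second strain, HHY168, Nab3 carried an FRB domain, which rapamycin ties to the FKBP12 domain of a ribosomal protein, so that Nab3 is carried out of the nucleus (anchor-away). HHY168 was given as MATalpha with tor1-1, with fpr1::NAT and with RPL13A-2xFKBP12::TRP, where tor1-1 and fpr1::NAT make cells insensitive to rapamycin itself. Pol II was followed in 2 cultures given rapamycin before the shift and 2 given solvent, all 4 labelled HHY168, although 1 solvent culture went against that label. A related strain with PMA1-2xFKBP12::TRP and untagged Nab3 gave single Pol II libraries with each of solvent and rapamycin at 0 and 14 min. A time-course is 1 culture sampled repeatedly, so n = 2 for each shift without glucose and, by label, for each drug. Tests that use solvent took both solvent cultures as replicates of 1 strain, as labelled.

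The libraries labelled solvent culture 1 went against their strain label. Over its 7 libraries STE2, the alpha-factor receptor gene that only MATa cells use, had 342 reads, and STE3, its MATalpha counterpart, had 25. In the 7 libraries of solvent culture 2 the order was the other way, with 40 reads of STE2 and 351 of STE3, and in the rapamycin cultures STE2 had 88 and 72 reads against 647 and 384 of STE3. LEU2, which BY4741 lacks, was at a mean of 11.1 FPKM (reads scaled for the length of the feature and the size of the library, the unit of all levels here) in the libraries labelled solvent culture 1, at 108 to 125 in the other 3 cultures, and without a read in the 21 Rpo21 libraries of BY4741. The main anchor-away values that rest on those libraries are therefore given with and without them. The 4 libraries of the strain with untagged Nab3 held few reads of either mating type's genes, at 49 of STE2 and 53 of STE3.

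Depth limited what could be tested. The Nab3 libraries held 10350 to 1309744 reads on annotated features, the Rpo21 libraries 25776 to 836241 and the RNA-Seq libraries 7557054 to 17997400. A feature was tested only where every library of the comparison had at least 1 read of it. That kept 30 of the 33 genes for Pol II in BY4741 (all but PRE8, RPN8 and RPN13), 9 for Nab3 (PUP1, PUP3, RPT2, RPT3, RPN1, RPN2, RPN3, RPN4 and RPN12) and 31 to 33 in the anchor-away cultures. No set of tested genes stands for the whole module, since the genes left out are those with few reads.

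The promoters are shown first because they separate RPN4 from most of its targets. A script searched both strands of the 300 bases before each annotated transcript start for the PACE letters GGTGGCAAA. The element was in 22 of the 33 promoters, against 0.769% of the 6630 other promoters and 1.1% of all 6663, and no promoter of the module held more than 1. It ended 10 to 150 bases before the transcript start, with a median of 55, 15 times on the strand of the gene and 7 times on the other. The following windows, from genome R64 in RefSeq and read along the strand of the gene, belong to members that were called in a comparison, with the element in capitals.
RPN2: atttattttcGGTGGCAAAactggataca
RPN9: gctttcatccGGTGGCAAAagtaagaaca
RPN12: ctacacattaTTTGCCACCcattgaaatt
PRE9: ttaccctgcaGGTGGCAAAaaatttatag
They lie on chromosome IX at 220801 to 220829 (minus strand), IV at 1322086 to 1322114 (plus strand), VI at 252398 to 252426 (plus strand) and VII at 761223 to 761251 (plus strand). The exact letters were not in the windows of PRE2, PRE3, PRE5, PUP1, PUP2, PUP3, RPN3, RPN4, RPN8, RPN10 and RPN13, which says only that this spelling is missing there.

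RPN4, the gene for the factor that reads this element, had other elements in its own promoter. The stretch from 170 to 50 bases before its transcript start (chromosome IV, 417037 to 417157, minus strand) is printed for them, with matches in capitals.
RPN4: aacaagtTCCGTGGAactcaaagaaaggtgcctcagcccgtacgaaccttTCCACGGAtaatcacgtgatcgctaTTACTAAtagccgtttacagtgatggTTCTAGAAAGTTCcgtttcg
From left to right the capitals mark a Pdr1/Pdr3 element (TCCGTGGA) and its reverse complement, a Yap1 element (TTACTAA) and a heat shock element (TTC, GAA and TTC with any 2 bases between them). The first was in 0.615% of all promoters, the Yap1 letters in 7.11% and the heat shock letters in 0.9%. Among the 33 members the Yap1 letters were in 4 promoters, and the Pdr1/Pdr3 and heat shock letters in 1 each. A match is a description of the sequence and shows no binding.

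In growing cells at 0 min, Nab3 cross-linked to RPN4 and PUP3 far above the rest of the module. RPN4 stood at 84.8, 88.5 and 96.3 FPKM in the 2 time-courses and the control, which was rank 96, 83 and 100 among 6692 protein-coding features. PUP3, which encodes a beta ring subunit without a proteolytic site of its own, stood at 73.9, 51.3 and 73.6 FPKM, at rank 120, 193 and 139. The other 31 genes had medians of 2.61, 0.73 and 3.42 FPKM, near those of all protein-coding features at 1.78, 1.13 and 2.50, and none was above 14.6. Pol II did not set the same 2 genes apart: RPN4 was at 45.2 and 28.1 FPKM and PUP3 at 39.9 and 47.9, against medians of 37.4 and 19.01 and highest values of 65.4 and 45.2 in the other 31, so that PUP3 was the highest member in time-course 2 by a small margin. Levels are per transcript length, and these ranks are descriptions without a test.

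**Figure D1:**
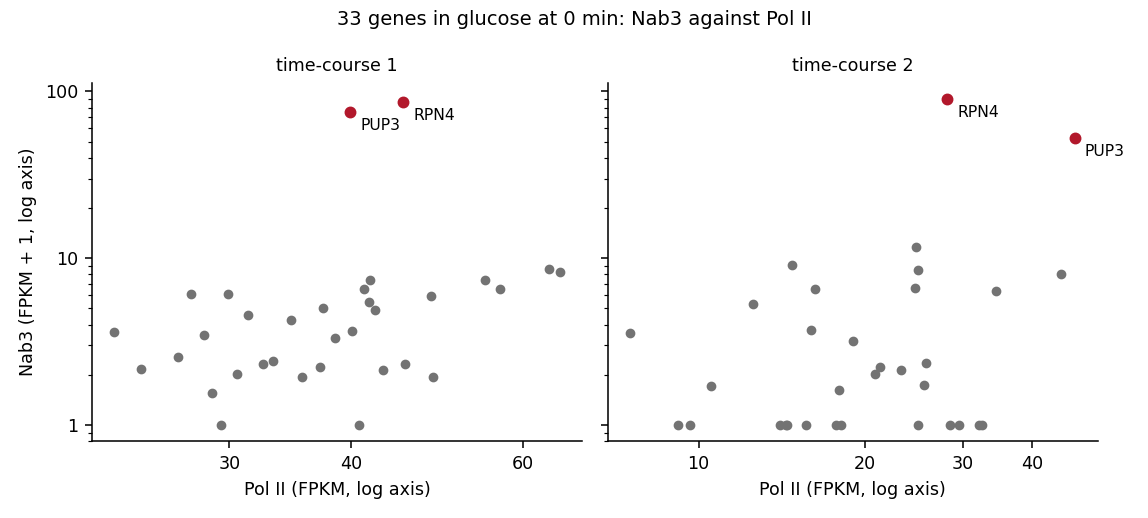
Level of each of the 33 genes in glucose at 0 min, Pol II (x axis, FPKM) against Nab3 (y axis, FPKM plus 1), both axes logarithmic, 1 point per gene and 1 panel per time-course. RPN4 and PUP3 (red) lie above every other gene in Nab3, while in Pol II they lie among the others, with PUP3 just beyond the highest of them in time-course 2.

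In cells irradiated in the Megatron, a different cross-linker, the same 2 genes led the module. Nab3 on RPN4 was at 141 and 165 FPKM and on PUP3 at 166 and 165 FPKM in the 2 libraries, and the next members were RPN12 in the first library (54.8 FPKM) and PUP2 in the second (35.2 FPKM). The single Vari-X-linker library of that test held 10350 reads, with PUP3 at 777 and RPN4 at 430 FPKM on 17 reads each and RPN9 at 344 FPKM on 9, so its depth did not set RPN4 apart from RPN9.

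Much of the PUP3 signal lay at its start, inside an annotated cryptic unstable transcript (CUT) on the same strand. That CUT took 51.4% of the PUP3 reads over the Nab3 time-courses (exact 95% interval 49.2% to 53.6%, 1026 of 1996 reads) and 37.5% over the Pol II time-courses (33.5% to 41.7%, 207 of 552), on 11.9% of the gene's length. PUP1, a catalytic beta ring gene, also holds a CUT near its start, with 51.6% of its Nab3 reads (46.4% to 56.8%) and 22.8% of its Pol II reads (19.1% to 26.9%), on 12.0% of the length. The intervals cover counting error only, and a read across an edge counts for both features. Nab3 and Pol II differed in the same direction in each time-course, with PUP3 at 53.6%, 55.3% and 47.1% in Nab3 against 39.9%, 34.4% and 37.0% in Pol II. For PUP1 these shares were 54.9%, 68.5% and 34.4% against 24.1%, 23.6% and 22.2%.

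The coding part of each CUT is shown because the whole CUT took about as many Nab3 reads as all the rest of the gene. The PUP3 CUT begins 35 bases before the start codon, and those bases are not printed. Capitals mark the short words bound by Nab3 (TCTT and CTTG) and by its partner Nrd1 (GTAA and GTAG).
PUP3: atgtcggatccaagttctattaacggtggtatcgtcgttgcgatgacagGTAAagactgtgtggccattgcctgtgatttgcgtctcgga
PUP1: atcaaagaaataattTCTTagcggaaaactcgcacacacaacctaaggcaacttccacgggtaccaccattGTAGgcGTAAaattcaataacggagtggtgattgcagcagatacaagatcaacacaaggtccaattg
They are bases 1 to 90 of the PUP3 reading frame (chromosome V, 349257 to 349346, minus strand) and bases 26 to 163 of that of PUP1 (chromosome XV, 631589 to 631726, minus strand). The printed PUP3 stretch held 1 GTAA and neither Nab3 word. The first 90 bases of the reading frame hold TCTT in 35% and GTAA in 24.5% of 6634 genes. Over whole transcripts, Nab3 words came at 7.87 per kilobase in RPN4 and 6.65 in PUP3, against a median of 5.81 in the other 31 members and 8.5 over all protein-coding genes. Both genes lay below the median density of protein-coding genes.

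Most of the antisense CUTs annotated opposite members carried more Nab3 reads than the member. Of the 33 genes, 17 overlapped another feature and 6 had a total of 9 antisense CUTs, of which 7, opposite 5 genes, had more Nab3 reads than the gene over all Nab3 time-courses. CUT620, opposite PRE9 of the alpha ring, had 126, 85 and 280 Nab3 reads at 0 min where PRE9 itself had 6, 0 and 14. CUT550, opposite PRE1 of the beta ring, had 53, 54 and 120 where PRE1 had 1, 1 and 4. Another of the counted CUTs lies inside CUT620 and another overlaps CUT550, so the 9 are not all separate stretches. The share among antisense CUTs of other genes was not counted, so nothing particular to the module is shown. PRE9 and PRE1 had a library without a Nab3 read and were not tested in time.

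In the first minutes without glucose the members' Pol II values lay on both sides of 0. Over 1, 2 and 4 min against 0 min, 15 of the 30 tested genes lay above 0 and 15 below, with a median log2 change of 0.01 where all 2890 tested features had −0.18. With equal sums over protein-coding features these medians were 0.41 and 0.20. On the deposited scale the time-courses parted, with members at a median of −0.32 in time-course 1 and 0.32 in time-course 2. All features had −0.30 and −0.07. Of all 33 genes, 14 had opposite signs in the 2 time-courses. The 0 min library of time-course 2 had 46.4% of its reads on ribosomal RNA. In these bulk cultures fewer cells and less RNA per cell cannot be told apart. No gene passed the threshold in limma (adjusted p of 0.05 over all tested features), 3 were below an unadjusted p of 0.05, and among all features 0% were called and 400 were below that unadjusted p. The alpha ring had a median of 0.21, the beta ring −0.04, the base 0.06 and the lid −0.15.

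RPN4 had one of the lowest early values of the module. In time-course 1 Pol II on RPN4 was at 45.2 FPKM at 0 min, then at 16.2, 15.8 and 38.3 FPKM at 1, 2 and 4 min. In time-course 2 it was at 28.1 FPKM, then at 11.9, 13.7 and 14.0. Every early library was below its own 0 min library in FPKM, while the glucose control stayed between 14.2 and 16.7 FPKM from 0 to 4 min. The control table was scaled separately, so its levels are set beside the others as a description. The log2 change was −1.04 ± 0.33 (SE, n = 2), −1.04 in each time-course, and did not pass the adjusted threshold (limma, adjusted p = 0.187, unadjusted p = 0.00893). The 1 min libraries held only 3 and 4 reads of RPN4, and without that time-point the change was −0.91 (adjusted p = 0.234). Per 10000 reads on protein-coding features, the 4 min library of time-course 1 (5.30) was above its 0 min library (4.16), and the other early libraries were below theirs. The log2 change was −0.87 with equal library medians and −0.63 with equal sums over protein-coding features, and was not called in either. The highest and lowest early values were those of PRE5 (1.47 ± 0.46, adjusted p = 0.184) and PRE9 (−1.09 ± 0.50, adjusted p = 0.358), both of the alpha ring.

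Of the genes fixed for full report, PRE2 (the chymotrypsin-like site) had an early log2 change of 0.54 ± 0.35, PRE3 (the caspase-like site) 0.18 ± 0.37 and PUP1 (the trypsin-like site) −0.59 ± 0.47. RPN1, a base scaffold that binds ubiquitin receptors, had 0.34 ± 0.33, RPN10 −0.45 ± 0.60 and RPN11 0.72 ± 0.45. None of the 6 passed the test.

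The later window gave the members a higher median than the rest of the features. Over 8, 14 and 20 min the 30 tested genes had a median log2 change of −0.05, against −0.68 for all tested features and −0.81 for the protein-coding ones. PRE5 was called higher and RPN9 lower, 1 gene each way, where 7.2% of features were called higher and 35.1% lower. Since the time-course tables were scaled to equal sums, this comparison depends on the scaling. With libraries set to equal medians the module's median was 0.58 where that of all features was −0.06, and 3 genes were called higher and 0 lower. With equal sums over protein-coding features it was 0.57 against −0.10, with 2 higher and 0 lower. Under each of the 3 scalings the members' median lay above that of all features. Of all 33 genes, 17 had opposite signs in the 2 time-courses.

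Both calls depended on the scaling or on 1 time-course. RPN9, a lid scaffold subunit, went from 38.5 FPKM at 0 min to 19.2, 19.2 and 16.6 at 8, 14 and 20 min in time-course 1. In time-course 2 it went from 32.5 to 7.15, 19.3 and 9.22, so all 6 late values were below both 0 min values. Its log2 change was −1.26 ± 0.36 (n = 2, limma, adjusted p = 0.0155) and −0.64 with equal medians, where it was no longer called (adjusted p = 0.182). PRE5 went from 24.4 to 40.3, 31.2 and 38.9 FPKM in time-course 1 and from 7.51 to 26.8, 57.8 and 37.5 in time-course 2. Its log2 change was 1.40 ± 0.46 (adjusted p = 0.0286), but the 0 min library of time-course 2 held 2 reads of it, and the change was 0.57 in time-course 1 alone and 2.23 in time-course 2 alone. None of the other 6 genes in full was called, with PRE2 at 0.22, PRE3 at 0.14, PUP1 at −0.52, RPN1 at −0.58, RPN10 at −0.60 and RPN11 at 0.72. RPN11 was called higher with equal library medians (1.34, adjusted p = 0.0289) and with equal sums over protein-coding features (1.33, adjusted p = 0.0417), and its time-courses parted, at −0.35 in time-course 1 and 1.78 in time-course 2.

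Pol II on RPN4 was above its 0 min level at 14 and 20 min. It stood at 34.3, 63.5 and 86.7 FPKM at 8, 14 and 20 min in time-course 1 and at 11.8, 41.4 and 49.6 in time-course 2. In FPKM both time-courses were below their 0 min level at 8 min, but that order depended on the scaling. The 8 min library of time-course 2 had 57.5% of its reads on ribosomal RNA and its 0 min library 46.4%, and the RPN4 values of these libraries rested on 5 and 17 reads. Per 10000 reads on protein-coding features RPN4 was at 5.79 at 8 min against 4.16 at 0 min in time-course 1 and at 2.55 against 3.43 in time-course 2, a scaling added after seeing the data. At 14 and 20 min it was above the 0 min level on both scales, and at 20 min of time-course 1 it was the highest member. The control stayed between 14.3 and 17.8 FPKM at those times. Averaged over the late window the log2 change was only 0.19 ± 0.33 (limma, adjusted p = 0.666), and over 14 and 20 min it was 0.69 (adjusted p = 0.138). With equal medians the late change was 0.82 (adjusted p = 0.0787), and RPN4 was not called under any of the 3 scalings.

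**Figure D2:**
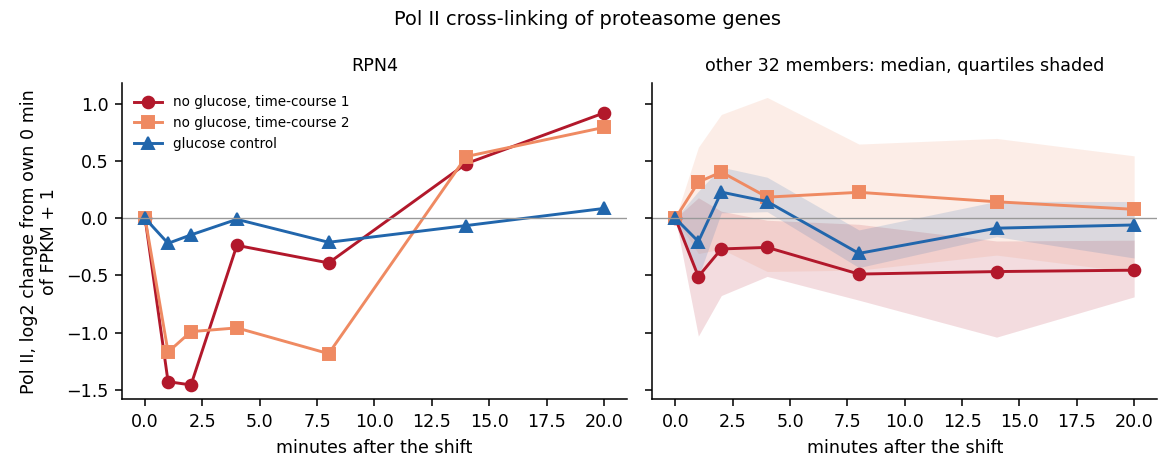
Pol II cross-linking as log2 change of FPKM plus 1 from the library at 0 min of the same time-course (y axis) against minutes after the shift (x axis), for RPN4 (left) and for the median of the other 32 members with quartiles shaded (right), in both time-courses without glucose and the glucose control. RPN4 lies below 0 at 1 to 8 min without glucose (per read on protein-coding features, 4 and 8 min of time-course 1 would lie above 0) and above 0 at 14 and 20 min, while the medians of the other members lie below 0 in time-course 1 and above 0 in time-course 2.

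Nab3 on RPN4 was higher from 8 to 28 min without glucose than at 0 min. In time-course 1 it was at 84.8 FPKM at 0 min, 54.5 and 49.8 at 1 and 2 min, 80.9 at 4 min, and then 154.8, 163.8 and 166.6 FPKM at 8, 14 and 20 min. In time-course 2 it was at 88.5 FPKM at 0 min, 80.5 at 1 min, 102.8 at 4 min, then 175.6, 176.9 and 184.7 at 8, 16 and 28 min, and 101.1 at 45 min. All 6 late values lay above every value of the glucose control, which fell between 68.3 and 96.3 FPKM. The late log2 change (8, 14 or 16, and 20 or 28 min against 0 min) was 0.97 ± 0.29 (n = 2, limma, adjusted p = 0.0247), and it rested on 156 to 851 reads per library. With 1 mean per time-course in place of the single libraries the change was the same and the adjusted p was 0.0642, with all features kept it was 0.0521.

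**Figure D3:**
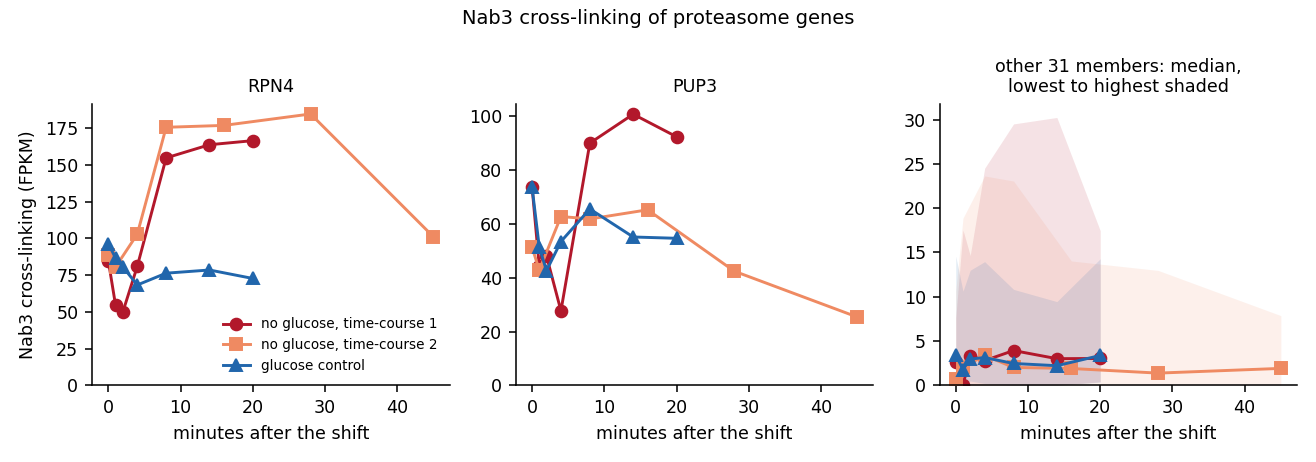
Nab3 cross-linking in FPKM (y axis, starting at 0) against minutes after the shift (x axis) for RPN4, PUP3 and the median of the other 31 members with their lowest to highest value shaded, in both time-courses without glucose and the glucose control. From 8 to 28 min without glucose RPN4 lies between 154.8 and 184.7 FPKM, above all control values, whereas the late values of PUP3 lie at 90.0 to 100.8 FPKM in time-course 1 and at 42.4 to 65.2 in time-course 2.

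Nab3 on 2 regulatory particle genes was also called higher. Of the 9 tested genes RPN12, RPN2 and RPN4 were called higher late and 0 lower, where 14.9% of features were called higher and 20.7% lower. RPN2, the large scaffold of the base, went from 5.08 to 18.1, 12.5 and 16.2 FPKM in time-course 1 and from 7.44 to 15.3, 10.1 and 10.7 in time-course 2, while the control was at 7.14 and then at 3.48, 4.64 and 6.46. All 6 late values of RPN2 exceeded the 0 min values and the late control, and the share of features that did so was not counted. At 45 min of time-course 2, outside the window, RPN2 was at 4.97 FPKM, below its 0 min value. Its log2 change was 1.02 ± 0.33 (adjusted p = 0.0347), with 1.43 in time-course 1 and 0.61 in time-course 2.

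RPN12, a lid subunit, had the highest late change of the 9 at 1.49 ± 0.41 (limma, adjusted p = 0.0163). It went from 3.86 FPKM (4 reads) to 29.5, 30.2 and 17.5 in time-course 1 and from 10.6 to 23.1, 14.0 and 13.0 in time-course 2. At 45 min of time-course 2 it was at 7.87 FPKM, below its 0 min value. The control went from 14.6 to 10.8, 8.05 and 14.3, so its 0 min value exceeded 2 of the 6 late values without glucose. The change was 2.42 in time-course 1 and 0.56 in time-course 2. RPN12 ends beside HXK1, the hexokinase gene on the opposite strand (chromosome VI, 253453 to 255427), whose Pol II went from 10.4 to 423 and from 4.79 to 210 FPKM between 0 and 20 min. HXK1 in Nab3 went from 7.48 to 56.7 and from 12.0 to 53.0 FPKM over the same course (to 20 and 28 min), and its part in the RPN12 signal was not tested.

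The remaining 6 tested genes were not called late. PUP3 had 0.23 ± 0.41, and its time-courses parted, since it stood at 90.0, 100.8 and 92.4 FPKM against 73.9 in the first and at 61.8, 65.2 and 42.4 against 51.3 in the second. At 45 min of the second it stood at 25.4 FPKM. PUP1 had 0.64 ± 0.30 (adjusted p = 0.12), RPN1 −0.27 ± 0.32, RPN3 0.11 ± 0.31, RPT2 −0.43 ± 0.32 and RPT3 0.05 ± 0.31. The median of the 9 was 0.23, near the 0.17 of protein-coding features. In the early window (1, 2 and 4 min) 0 of the 9 were called, where 2.3% of features were, with 1 gene below an unadjusted p of 0.05. That gene was PUP1, from 5.13 and 5.63 FPKM at 0 min to between 10.5 and 17.2 in all 5 early libraries (log2 change 1.199 ± 0.32, limma, adjusted p = 0.0634, or 0.0439 with equal library medians), but its 0 min libraries held 6 reads each. PUP3 had the lowest early value (−0.51 ± 0.43), and RPN4 had −0.33 ± 0.30.

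The late changes were also set against the glucose control. This comparison divided each time-course by its own 0 min library and set the 2 time-courses without glucose against the single control. In Nab3, 3 of 8 tested genes were called higher and 0 lower, where 12.7% of features were called higher and 16.4% lower: RPN2 at 1.52 ± 0.40 (adjusted p = 0.0217), RPN4 at 1.31 ± 0.30 (adjusted p = 0.0131) and PUP1 at 1.29 ± 0.34 (adjusted p = 0.0204). In the control PUP1 fell from 10.96 FPKM at 0 min to 4.79, 6.62 and 9.22 at 8, 14 and 20 min. Its late values without glucose were 11.8, 12.6 and 8.28 FPKM in time-course 1 and 7.85, 8.70 and 6.10 in time-course 2. RPN12 had the highest value, 1.90 ± 0.67, and was not called (limma, adjusted p = 0.0623). In Pol II RPN9 alone of 30 genes was called, at −1.02 ± 0.35 (adjusted p = 0.0429), where 5.59% of features were called higher and 30.9% lower, and RPN4 was at 0.26 ± 0.33. RPN9 was not called with equal library medians (−0.47, adjusted p = 0.362) or with equal sums over protein-coding features (−0.53, adjusted p = 0.316). The values of a time-course share its 0 min library, which makes these p-values too small, and with 1 mean per time-course (2 against 1) 0 members were called in either protein.

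In total RNA, RPN4 stood apart from the other members. RPN4 was at 27.3, 25.8, 24.0 and 26.2 FPKM at 0, 1, 4 and 8 min, and then at 50.6, 90.7 and 70.0 FPKM at 14, 30 and 40 min. It was level for 8 min and then higher in each of the 3 later libraries, with log2 changes of 0.87, 1.70 and 1.33. RPN4 was the only member at least 2-fold higher at both 30 and 40 min, where 12.2% of 8987 features were, and 0 members were at least 2-fold lower at both, where 15.8% of features were. The members' medians lay between −0.15 and −0.04 at every time, and those of all features between −0.24 and −0.07. Single values past 2-fold were PRE10 at 14 min (166 to 81.1 FPKM) and PRE9 at 40 min (138 to 63.1 FPKM), both of the alpha ring. The most abundant member was PRE2, at 226 FPKM at 0 min and 223 at 40 min. With 1 library per time-point these values have no replicate check, and no test was made.

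**Figure D4:**
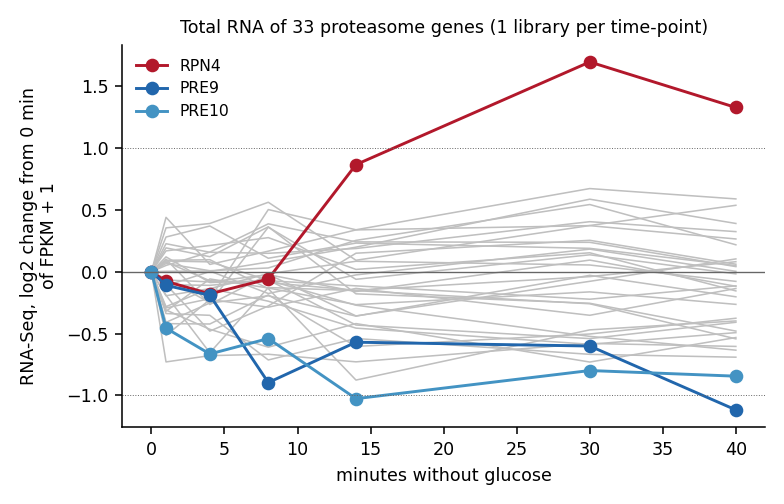
RNA-Seq log2 change of FPKM plus 1 from 0 min (y axis) against minutes without glucose (x axis) for each of the 33 genes, with dotted lines at a 2-fold change. RPN4 reaches 1.70 at 30 min and 1.33 at 40 min, and only PRE9 and PRE10 (blue) cross the lower line.

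The anchor-away cultures ask what happens to Pol II when Nab3 is taken out of the nucleus. Early (1, 2 and 4 min) Pol II on RPN4 was higher in both rapamycin cultures than in both solvent cultures. Rapamycin culture 1 was at 26.6, 45.1 and 74.4 FPKM and rapamycin culture 2 at 35.1, 38.9 and 67.2. The libraries labelled solvent culture 1 were at 15.1, 21.1 and 23.3 FPKM and solvent culture 2 at 17.6, 18.8 and 26.8. PRE3 was also higher in both rapamycin cultures at each of the 3 times, and the share of all features that did so was not counted. Before the shift, at 0 min, RPN4 was at 49.3 and 39.2 FPKM with rapamycin. The only solvent library of that time, labelled solvent culture 1, was at 33.4. The early log2 difference of the culture means on RPN4 was 1.12 ± 0.42 (n = 2 against 2) and missed the adjusted threshold (limma, adjusted p = 0.158, unadjusted p = 0.0146). Without the libraries labelled solvent culture 1 it was 1.08, and without solvent culture 2 it was 1.16, with 1 culture for the solvent in each case.

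No member was called early. Of 31 tested genes 0 were called, where 3.79% of features were, and 2 were below an unadjusted p of 0.05 (RPN4, and SCL1 of the alpha ring at 1.13 ± 0.49, adjusted p = 0.25). The members' median was 0.19 against 0.12 over all features, and 28 of the 31 lay above 0. With equal library medians both medians turned negative, at −0.04 and −0.12. Without the libraries labelled solvent culture 1 the median was 0.05 against −0.07, and SCL1 had 0.35. Without solvent culture 2, SCL1 had 1.90. RPT2 had the lowest value, −0.36 ± 0.43. PRE2, PRE3, RPN1, RPN10 and RPN11 lay between 0.02 and 0.90, with PRE3 the highest at 0.90 ± 0.45 (adjusted p = 0.348) and at 0.36 without those libraries, while PUP1 was not tested for want of reads in 1 library.

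Late (8 or 10, 14 or 18, and 40 or 51 min) the difference on RPN4 was smaller, 0.53 ± 0.39 (limma, adjusted p = 0.429). It was 0.23 without the libraries labelled solvent culture 1 and 0.83 without solvent culture 2, with 1 culture for the solvent in each case. At 8 or 10 min solvent culture 2 had reached 65.9 FPKM, near the 84.8 and 74.1 of the rapamycin cultures, and the libraries labelled solvent culture 1 were at 35.7. Of 33 genes 0 were called, where 2.74% of features were, and 1 was below an unadjusted p of 0.05. That was PRE9 at 0.97 ± 0.42 (limma, adjusted p = 0.229), or 0.47 without the libraries labelled solvent culture 1. The lowest was RPT1, a base ATPase, at −0.62 ± 0.40, and also at −0.62 without those libraries. The members' median of 0.33 lay below the 0.42 of all features, and without the libraries labelled solvent culture 1 it was 0.16 against 0.21. Without solvent culture 2 it was 0.39 against 0.59, with PRE9 at 1.47, RPT5 at 1.198 and PRE7 at 0.98. With equal library medians the members' median was −0.22, that of all features −0.12 and RPN4 −0.02.

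Within the solvent cultures Pol II rose on RPN4 between the early and the late window. RPN4 alone was called higher and 9 genes were called lower of 31, where 7.78% of features were called higher and 31.7% lower, so the share of members called lower was near that of all features. The 9 were RPN12, PRE9, RPN7, RPN11, RPN1, PUP2, PRE4, RPN8 and RPN5, from −1.52 to −0.74, and 5 of them are lid genes. The members' median was −0.55 against −0.41 over all features and −0.54 over protein-coding ones, values close to each other. RPN4 had 0.97 ± 0.25 (n = 2, limma, adjusted p = 0.0189), 0.71 in the libraries labelled solvent culture 1 and 1.23 in solvent culture 2.

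With 1 solvent culture left out, the other has no spread of its own, so only values are given. Without the libraries labelled solvent culture 1, RPN4 was at 1.23, PRE9 at −1.24, RPN12 at −1.28 and RPN7 at −1.025. The members' median was then −0.71 against −0.40 over all features. Without solvent culture 2 these genes were at 0.71, −1.655, −1.76 and −1.11, with a members' median of −0.48 against −0.42. PRE9 was at 57.9, 33.8 and 43.5 FPKM early and 43.8, 12.8 and 10.1 late in solvent culture 2, against 49.5, 28.8 and 17.0 and then 19.2, 4.27 and 7.13 in the libraries labelled solvent culture 1. RPN12 was at 28.7, 43.3 and 24.7 FPKM early and at 11.9, 25.2 and 5.92 late in solvent culture 2, and its last library of the other culture held 1 read. With equal library medians 1 gene was called higher and 2 lower, the members' median was −0.13 and that of all features was 0.01.

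In the rapamycin cultures fewer members passed the test. PRE9 (−1.11 ± 0.27, adjusted p = 0.027) and RPT1 (−0.99 ± 0.29, adjusted p = 0.0457) were called lower of 31 and 0 higher, where 3.98% of features were called higher and 17.7% lower. PRE9 was at −0.77 and −1.45 in rapamycin cultures 1 and 2, and RPT1 at −0.855 and −1.13. With 1 rapamycin culture left out, the other has no spread of its own, so no call is given. The members' median was −0.50 against −0.22 over all features. Of all 33 genes, 30 lay below 0 in both rapamycin cultures and 26 in both solvent cultures, and RPN4 was the only gene above 0 in both cultures of each drug, at 0.51 and 0.25 with rapamycin. The difference of the 2 responses was called for 0 of 31 genes and 0% of features in limma, with 2 members below an unadjusted p of 0.05: RPN12 at 0.86 ± 0.37 and RPT1 at −1.14 ± 0.41. For RPN4 it was −0.59 ± 0.36 (adjusted p = 0.583). Without the libraries labelled solvent culture 1, RPN12 was at 0.62, RPT1 at −0.68 and RPN4 at −0.85.

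**Figure D5:**
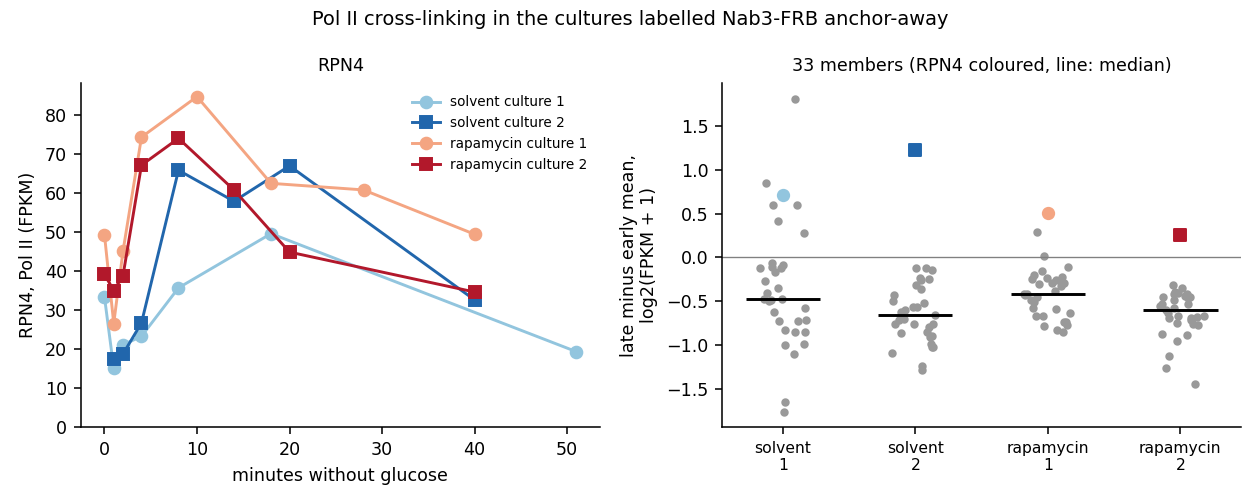
Pol II in the 4 cultures labelled as anchor-away strain. Left, FPKM of RPN4 (y axis, starting at 0) against minutes without glucose (x axis) by culture. Right, difference of the late and early means of log2(FPKM + 1) for the 33 genes by culture (grey points, RPN4 coloured, line at the median). RPN4 lies above 0 in each culture, and the medians of all 4 lie below 0.

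In the strain with untagged Nab3, RPN4 also had more Pol II with the drug at 14 min. It took 2.52 per 10000 reads with solvent and 2.96 with rapamycin at 0 min, with overlapping exact 95% intervals of 2.19 to 2.89 and 2.57 to 3.39. At 14 min it took 4.31 with solvent (3.71 to 4.98) and 6.40 with rapamycin (5.87 to 6.97), intervals that did not overlap. These are single libraries, the intervals cover counting error only, and no test of the drug was possible. The 14 min libraries had 59.9% (solvent) and 66% (rapamycin) of their reads on protein-coding features, for which these shares were not corrected. How many features had intervals apart was not counted. In FPKM RPN4 went from 59.9 to 98.1 with solvent and from 71.3 to 137.6 with rapamycin, the highest member at 14 min in both. The members' median log2 difference between rapamycin and solvent was −0.06 at 0 min and 0.06 at 14 min. RPN4 had 0.25 and 0.48, and at 14 min PRE4 had a larger difference, 0.56. From 0 to 14 min the members' median change was 0.21 with solvent and 0.22 with rapamycin, where protein-coding features had −0.43 and −0.40. PRE2 had the highest value in both (1.23 and 1.37) and RPN9 the lowest (−0.80 and −0.41).

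Other genes of the pathway were counted in the same comparisons. A list of 39 other genes held SEM1, 10 assembly chaperones, 5 proteasome-bound factors, 7 shuttle receptors and Cdc48 genes, 4 ubiquitin genes, 6 conjugation genes and 6 genes that act upstream of RPN4. In Pol II late, 1 of 20 tested was called higher and 6 lower, against 1 and 1 of 30 members and 7.2% and 35.1% of all features. UBC4, a ubiquitin-conjugating enzyme of the stress response, had 1.29. RPS31 (−2.76), RPL40A (−1.77) and RPL40B (−1.37) were lower, the 3 genes that encode ubiquitin fused to a ribosomal protein, as was UBR2 (−2.16), the ubiquitin ligase that marks Rpn4 for destruction. BLM10 (−1.72), an alternative activator of the core, and UBR1 (−0.88), the N-end rule ligase, were the other 2. UBR1 lay near the median of protein-coding features. These Pol II calls are on the deposited scale, on which late values depended, and calls of the list under the other scalings were not counted. UBI4, the stress-induced polyubiquitin gene, was called higher in the solvent cultures (1.18, or 1.30 without the libraries labelled solvent culture 1) and not in Pol II in BY4741. Whether the 2 differ was not tested.

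In Nab3 late, 4 of 20 tested genes of that list were called higher and 0 lower, where 14.9% and 20.7% of features were. They were TMA17 (2.51) and HSM3 (1.85), both chaperones that help to build the base, RAD23 (1.47), a shuttle that brings ubiquitylated proteins to the proteasome, and UBC4 (1.46). RAD23 was also the only one called early (1.70). Against the control, TMA17, HSM3, UBC4 and the chaperone gene NAS6 (1.17) were called higher of 19. In the solvent cultures 3 of 27 were called higher, TMA17 at 1.11 among them, and 10 lower, UBR2 at −1.21 among them, where 7.78% and 31.7% of features were. Without the libraries labelled solvent culture 1, TMA17 was at 1.60 and UBR2 at −1.04. In the rapamycin cultures 0 were called higher and 4 lower. Rapamycin against solvent called NAS6 early (1.60, limma, adjusted p = 0.0429). Its value was 1.44 without the libraries labelled solvent culture 1, which leaves 1 solvent culture. Late it called 0 of 32. UMP1, which encodes a maturation factor of the core, was at 1.095 late and not called. It was at 1.53 without the libraries labelled solvent culture 1 and at 0.66 without solvent culture 2.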

How the data were processed

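Libraries of 86 of the 88 samples were used, from 13 tables. The deposited values are FPKM: the authors removed duplicate reads by random barcodes, aligned to genome R64 with Novoalign (version 2.0.4 in the submitters' processing notes), distributed reads with several positions at random, counted per annotated feature and, in the Nab3, Rpo21 and anchor-away time-courses, scaled the libraries of a table to equal sums. The Rpo21 control had another sum than the time-courses without glucose and was tested against them only after division by its own 0 min library. 3 value columns of no listed sample were not used. Whole reads could be recovered for 100% of low values (within 0.1 read), which gave the read counts.

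Levels were tested as log2(FPKM + 1) with limma 3.58.1 in R 4.3.3 over all features above 0 in every library compared, with Benjamini-Hochberg adjustment over all of them and a threshold of 0.05. Time comparisons used the time-course as a block, as the study divides each by its own start. Time-points of a window share 1 culture, so these p-values measure the spread between libraries of 2 time-courses, and those of the anchor-away comparisons the spread between cultures (1 mean each, 2 per drug). Where 1 anchor-away culture was left out, its drug had no spread of its own, so only values are given. Nothing in the labels says that replicates were independent beyond the culture. Fold changes on this scale understate low genes. Scripts ran in Python 3.11.15 (matplotlib 3.10.9, scipy 1.17.1, pandas 2.3.3, numpy 2.4.6) and were tested on simulated data. Alternatives changed the pseudocount, the filters, the scaling, the windows, the block and the replicates kept.

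RPN4, PRE2, PRE3, PUP1, RPN1, RPN10 and RPN11 were named in full, plus in each comparison the 3 called members with the largest rise and fall, or the highest and lowest where none was called. PUP3 and other members given at 0 min or beside a limit were chosen after their values were seen. Members and lists were chosen with earlier results of these data known.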

Additional observations from a re-analysis of the deposited data

Results flagged for a closer look

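Nab3 on RPN4 (1.31), RPN2 (1.52) and PUP1 (1.29) was higher relative to its own 0 min library without glucose than in the glucose control, on the log2 scale, and Pol II on RPN9 was lower (−1.02). These 4 values passed a test of the difference that takes the time-points of 1 control culture as replicates. RPN9 was not called with equal library medians (−0.47, adjusted p = 0.362) or with equal sums over protein-coding features (−0.53, adjusted p = 0.316). The direction was the same in both time-courses, at 1.27 and 1.35 for RPN4, 1.94 and 1.11 for RPN2, 1.58 and 1.00 for PUP1, and −0.79 and −1.25 for RPN9. A single control time-course stands on the other side of each, and with 1 mean per time-course none of the 4 passed the test, so a difference between the conditions was not shown.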

How the results depend on the processing

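Counts of members called moved with the settings as follows. Without the filter on detection 0 members were called in Pol II late (2 otherwise), Nab3 late (3), Pol II against control (1), the solvent response (10) and the rapamycin response (2), since more features entered the adjustment. With 1 window mean per time-course the counts were 1 in Pol II early (0 otherwise), 1 in Pol II late, and 0 against control for Pol II and for Nab3 (3 otherwise). Limma-voom on recovered reads called 1 member in Pol II early and 1 late. Equal library medians gave 1 in Nab3 early (0 otherwise), 3 in the solvent response and 1 in the rapamycin response. Equal sums over protein-coding features gave 0 in Pol II and 1 in Nab3 against control, 3 in the solvent response and 1 in the rapamycin response. A minimum mean of 10 FPKM gave 1 in Nab3 against control and 4 in the rapamycin response, a pseudocount of 0.1 gave 1 there, and the added 20 or 28 min library gave 4. Nab3 at 20 or 28 min alone, chosen after seeing the data like the other shortened windows and the 2 min library left out, gave 0. Leaving out 1 culture gave 0 to 1 members in rapamycin early, 0 to 3 late, 4 to 7 in the solvent response and 0 to 1 in the rapamycin response. For the time-courses it left no residual spread, so only values could be given. The cause of these moves was otherwise not tested.

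Without the replicate block 0 members were called in Pol II early, 2 late and 2 in Nab3 late, where RPN2 was lost (adjusted p = 0.0527). A replicate block across solvent and rapamycin cultures left RPN4 early at 1.12 (adjusted p = 0.187) and called 0 members. Deviations of equally numbered cultures correlated at 0.017 early and 0.0046 late, which gave no sign of pairing. The libraries labelled solvent culture 1 entered this check and went against their strain label, so it cannot exclude pairing. Of 892 values of named genes under the alternatives, 51 lost their call, 10 gained one, 8 moved in size, and none that was called changed sign. Among values not called there were 70 changes of sign. The 892 include genes that were never called and fits with 1 culture or time-course left out, so these counts are not a rate of lost calls. Depth limits Nab3 to 9 of the 33 genes, and 2 to 20 reads at 0 min stand behind PRE5, PUP1, RPN2 and RPN12.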
